A study of Mus musculus with 258 samples.

Results

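Of 103 single cells sorted from the embryonic mouse pancreas for a bright Ngn3 reporter, 14 held almost no Neurod1 transcript. These 14 Neurod1-negative cells are described here against the 89 Neurod1-positive cells of the same sort and against 118 cells of the Ngn3-low sort, 221 single cells in a series of 258 samples. The members were chosen by a measured value: Neurod1 under 10 CPM, where CPM is the reads of a gene over all reads in genes of that cell, without the ERCC spike-in RNA, scaled to 1e6. The Neurod1 values are therefore a description and carry no test.

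The study followed the change of pancreatic progenitors into endocrine cells and the part played in it by Jmjd3, a demethylase of histone H3 lysine 27 that is encoded by Kdm6b. All single cells came from dorsal pancreas at E13.5 (E, embryonic day) and carry the sort names Ngn3-high and Ngn3-low, after a fluorescent (GFP) reporter for Ngn3, as the Neurog3 protein is called. Among Neurod1-negative cells, 6 were Jmjd3-deleted (labelled Pdx1-Cre with Jmjd3 fl/fl, so that a recombinase driven by the promoter of the pancreatic gene Pdx1 acts on a floxed Jmjd3 gene) and 8 were wild type (WT). The Neurod1-positive cells were 38 Jmjd3-deleted and 51 WT cells, and the Ngn3-low cells 69 Jmjd3-deleted and 49 WT cells. No Cre is named for WT cells and no animal for any cell, so each population is 1 sample and single-cell differences below have no replicate check and no p-value. A replicated comparison came from 2 bulk RNA libraries each of Ngn3-high and Ngn3-low cells from E13.5 dorsal pancreas with the same reporter, for which the labels name no deletion.

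Neurog3 is a basic helix-loop-helix transcription factor that starts the endocrine programme in epithelial cells of the embryonic pancreatic trunk, which express Sox9 and respond to Notch. It is present for a short time and activates a second tier of factors, among them Neurod1, Pax4, Insm1 and Nkx2-2, and the cells leave the cell cycle. Neurod1, itself a basic helix-loop-helix factor, stays on in hormone cells and is known as a direct target of Neurog3. A cell that carries the Neurog3 transcript and reporter but no Neurod1 transcript can be an early cell of the sort or a cell that entered it for another reason, and the values below describe which genes such cells held.

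Both factors bind the DNA motif CANNTG, called an E-box, and the 250 bases before the annotated start of 3 genes are shown with each such motif in capitals. Neurod1 split the cells, Neurog3 marked the sort, and Chgb, the granule protein chromogranin B, had the largest level difference between the groups. The windows are chr2:79456637-79456886 on the minus strand for Neurod1, chr10:62132840-62133089 on the plus strand for Neurog3 and chr2:132781392-132781641 on the plus strand for Chgb, from RefSeq on build GRCm38.p6, 5′ to 3′.
Neurod1: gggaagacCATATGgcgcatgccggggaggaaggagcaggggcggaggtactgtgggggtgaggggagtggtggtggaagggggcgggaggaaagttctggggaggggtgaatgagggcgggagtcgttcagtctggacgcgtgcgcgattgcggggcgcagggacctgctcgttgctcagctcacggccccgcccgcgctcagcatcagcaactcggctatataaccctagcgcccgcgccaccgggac
Neurog3: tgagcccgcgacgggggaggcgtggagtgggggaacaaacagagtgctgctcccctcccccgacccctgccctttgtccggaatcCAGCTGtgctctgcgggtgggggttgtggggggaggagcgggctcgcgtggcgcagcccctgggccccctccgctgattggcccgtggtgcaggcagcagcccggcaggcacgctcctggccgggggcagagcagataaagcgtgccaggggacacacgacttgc
Chgb: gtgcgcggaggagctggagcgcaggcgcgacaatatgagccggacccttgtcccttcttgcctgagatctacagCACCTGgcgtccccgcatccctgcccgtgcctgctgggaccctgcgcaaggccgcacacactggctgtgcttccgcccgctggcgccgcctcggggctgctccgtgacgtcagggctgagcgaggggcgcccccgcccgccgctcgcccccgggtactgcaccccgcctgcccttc
Each window held 1 E-box, which reads the same on both strands as CANNTG. Its position counted from the start of the gene was -242 for Neurod1, -165 for Neurog3 and -176 for Chgb. Of 32841 windows of this length before annotated mouse gene starts, 66.2% held at least 1 such motif, so a match is a description of these letters only.

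The sort labels matched the markers given with them. Neurog3 (chromosome 10, 62133090 to 62134763, GRCm38) stood between 527 and 3357 CPM in Neurod1-negative cells, with a median of 2075, against a median of 1179 in Neurod1-positive cells (0 to 5158) and 11.3 in Ngn3-low cells (0 to 807). Every Neurod1-negative cell was at 10 CPM or more of Neurog3, against 84.3% of Neurod1-positive and 51.7% of Ngn3-low cells. Over the summed reads of each population Neurog3 was at 1959 CPM (95% Poisson interval 1932 to 1987) in Neurod1-negative, 1383 CPM (1374 to 1392) in Neurod1-positive and 82.9 CPM (81.0 to 84.9) in Ngn3-low cells. Such intervals cover counting error only. Sox9, the trunk progenitor factor, was intermediate, at 197 CPM in Neurod1-negative, 81.7 CPM in Neurod1-positive and 970 CPM in Ngn3-low cells, a log2 ratio of 1.26 to Neurod1-positive cells that was 0.99 without title number 5, the number in the middle of a cell's title. Neurod1 (chromosome 2, 79452637 to 79456636) had no read in 12 of the Neurod1-negative cells and 5.66 and 5.73 CPM in the other two. Just outside the threshold stood Neurod1-positive cells at 37.2 and 64.9 CPM, and the median of the Neurod1-positive cells was 693 CPM.

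The populations overlapped in depth. The median total over genes was 707724 reads in Neurod1-negative (435499 to 1156647), 723596 in Neurod1-positive and 692150 in Ngn3-low cells, and 8034, 8271 and 8794 detected genes in the same order of populations. ERCC reads made up a median of 4.46%, 4.22% and 3.54%. The bulk libraries of these sorts held 11957415 to 17760214 reads in genes. Kdm6b, the gene deleted in part of the cells, averaged 81.8 CPM in Jmjd3-deleted and 212 CPM in WT Neurod1-negative cells. Its transcript was still counted in all 6 Jmjd3-deleted cells (56.7 to 125 CPM), and the counts do not show which part of the gene the reads came from.

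The share of Neurod1-negative cells was alike in both genotypes, with wide intervals that cover counting error only, and a difference was not tested. It was 13.6% (exact 95% binomial interval 5.17 to 27.4) of 44 Jmjd3-deleted Ngn3-high cells and 13.6% (6.04 to 24.98) of 59 WT Ngn3-high cells. That title number took the values 1, 5 and 6 among Ngn3-high cells, and each of the 6 combinations of genotype and title number held 1 to 5 Neurod1-negative cells. Title number 1 held 3 of the Jmjd3-deleted and 5 of the WT members. Among Ngn3-low cells the title number took the values 1 to 5. Title numbers 2, 3 and 4 held 13, 7 and 14 WT Ngn3-low cells, and title number 2 held 36 Jmjd3-deleted Ngn3-low cells.

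**Figure D1:**
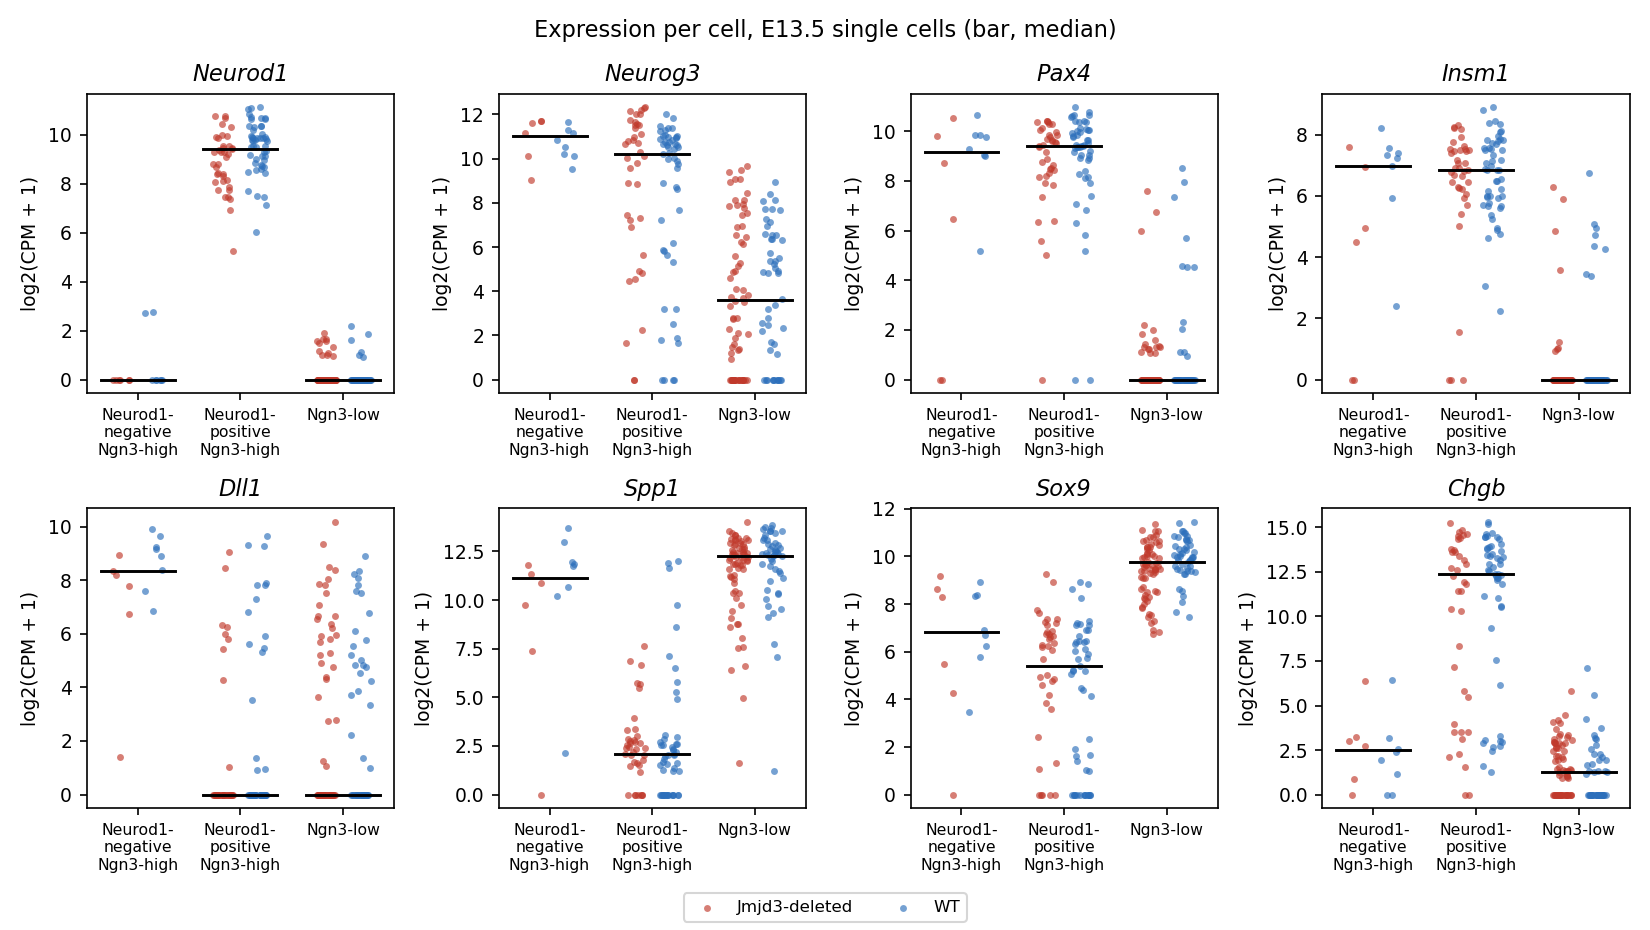
Level of 8 genes in each of the 221 cells as log2(CPM + 1), in Neurod1-negative Ngn3-high, Neurod1-positive Ngn3-high and Ngn3-low cells, with Jmjd3-deleted cells in red at the left and WT cells in blue at the right of each group and the median as a bar. Neurog3 of Neurod1-negative cells lies with Neurod1-positive cells, Pax4 and Insm1 reach 10 CPM in 12 and 11 of 14, Chgb lies with Ngn3-low cells, Spp1 lies with Ngn3-low cells in 12 of 14, and Dll1 is at 10 CPM or more in 13 of 14.

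Neurod1-negative cells held some endocrine factors, Pax4, Nkx2-2 and Rfx6 among them, within 2-fold of the summed level of Neurod1-positive cells, held others such as Pax6, Isl1 and Fev at or near 0, and stood above Neurod1-positive cells in 10 of 20 trunk and duct genes. A gene counted as higher or lower here where the summed levels differed at least 2-fold (1 CPM added to each side) with 20 CPM or more in the higher population. Of 8153 genes at that level, 763 were higher in Neurod1-negative than in Neurod1-positive cells (9.36% of those compared) and 972 were lower (11.9%). The summed levels rest on 14 cells on the one side, so a gene that is read in few cells can pass this rule by the draw of cells, and shares of cells are given beside the levels.

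Among 22 endocrine transcription factors, 11 were lower in Neurod1-negative than in Neurod1-positive cells and none was higher, with a median log2 ratio of -2.14 over the 19 that reached 20 CPM in either population, against -0.06 over all genes compared. Over all genes compared, 11.9% were lower and 9.36% higher. The median of the factors is the same with Isl1, which had no read, at its bound. With Neurod1 left out, Neurod1-negative cells held 7 to 11 of the other 21 factors at 10 CPM or more (median 8.5), Neurod1-positive cells 7 to 18 (median 15) and Ngn3-low cells 1 to 7 (median 4). The list contains Neurod1 itself, which the choice of cells set low.

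Several factors differed by less than 2-fold between the Ngn3-high populations. Pax4, a paired homeobox repressor of early endocrine cells (chromosome 6, 28442334 to 28449340), ranged up to 1606 CPM with a median of 573 in Neurod1-negative cells, against a median of 681 in Neurod1-positive and 0 in Ngn3-low cells. It was read at 10 CPM or more in 12 of 14, 86 of 89 and 10 of 118 cells of these populations. Insm1, a zinc finger factor needed for endocrine differentiation, had medians of 124, 115 and 0 CPM in the same populations. The same 2 Jmjd3-deleted cells, number 15 of title number 5 and number 2 of title number 6, had no read of either gene. By genotype, the Insm1 median was 25.6 CPM in Jmjd3-deleted Neurod1-negative and 117 CPM in Jmjd3-deleted Neurod1-positive cells, and 157 CPM in WT Neurod1-negative and 115 CPM in WT Neurod1-positive cells. The Pax4 median was 255 against 669 CPM in Jmjd3-deleted cells and 749 against 685 CPM in WT cells. Both genes thus had lower medians in Neurod1-negative cells among Jmjd3-deleted cells only, which rests on 6 cells, and the difference between genotypes was not tested. Nkx2-2, a homeobox factor of all islet lineages, was at 259 CPM in Neurod1-negative, 264 CPM in Neurod1-positive and 49.1 CPM in Ngn3-low cells, and Rfx6, a winged helix factor upstream of several islet genes, at 379, 566 and 37.3 CPM. Both were at 10 CPM or more in all 14 Neurod1-negative cells. Lmx1b (32.02, 33.01 and 1.26 CPM) and Rfx3 (314, 253 and 144 CPM) also differed by less than 2-fold between the Ngn3-high populations.

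Another set was lower than in Neurod1-positive cells but above Ngn3-low cells. Myt1, a zinc finger factor that promotes endocrine differentiation, was at 57.7 CPM in Neurod1-negative, 220 CPM in Neurod1-positive and 0.13 CPM in Ngn3-low cells. It reached 10 CPM in 7 of 14, 87 of 89 and none of 118 cells, and its log2 ratio of -1.92 to Neurod1-positive cells was -2.65 without WT cell 23 of title number 1, which alone had 308 CPM. Pou3f4, a POU homeobox factor, was at 15.8, 108 and 0.24 CPM in the same order. The insulin receptor-related gene Insrr stood at 21.3, 97.4 and 4.23 CPM.

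Other factors were at or near 0 in Neurod1-negative cells. Fev, a factor of late endocrine progenitors, had at most 1.80 CPM in any Neurod1-negative cell, against a median of 176 and a highest value of 2389 CPM in Neurod1-positive cells. It reached 10 CPM in 0 of 14 Neurod1-negative cells, an exact 95% binomial upper limit of 23.2%, and in 75.3% of Neurod1-positive cells. Pax6, a paired homeobox factor of all islet lineages, was at 0.49 CPM in Neurod1-negative, 456 CPM in Neurod1-positive and 0.72 CPM in Ngn3-low cells. Isl1, a LIM homeobox factor, had no read in any Neurod1-negative cell and 201 CPM in Neurod1-positive cells, at least 683-fold lower against a floor of 3 counts over the group. St18 (0.69 against 275 CPM) and Runx1t1 (1.28 against 319 CPM), which is a corepressor, followed the same pattern in Neurod1-negative against Neurod1-positive cells. In Ngn3-low cells Runx1t1 stood at 14.7 CPM, under the level of 20 CPM needed for a call.

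**Figure D2:**
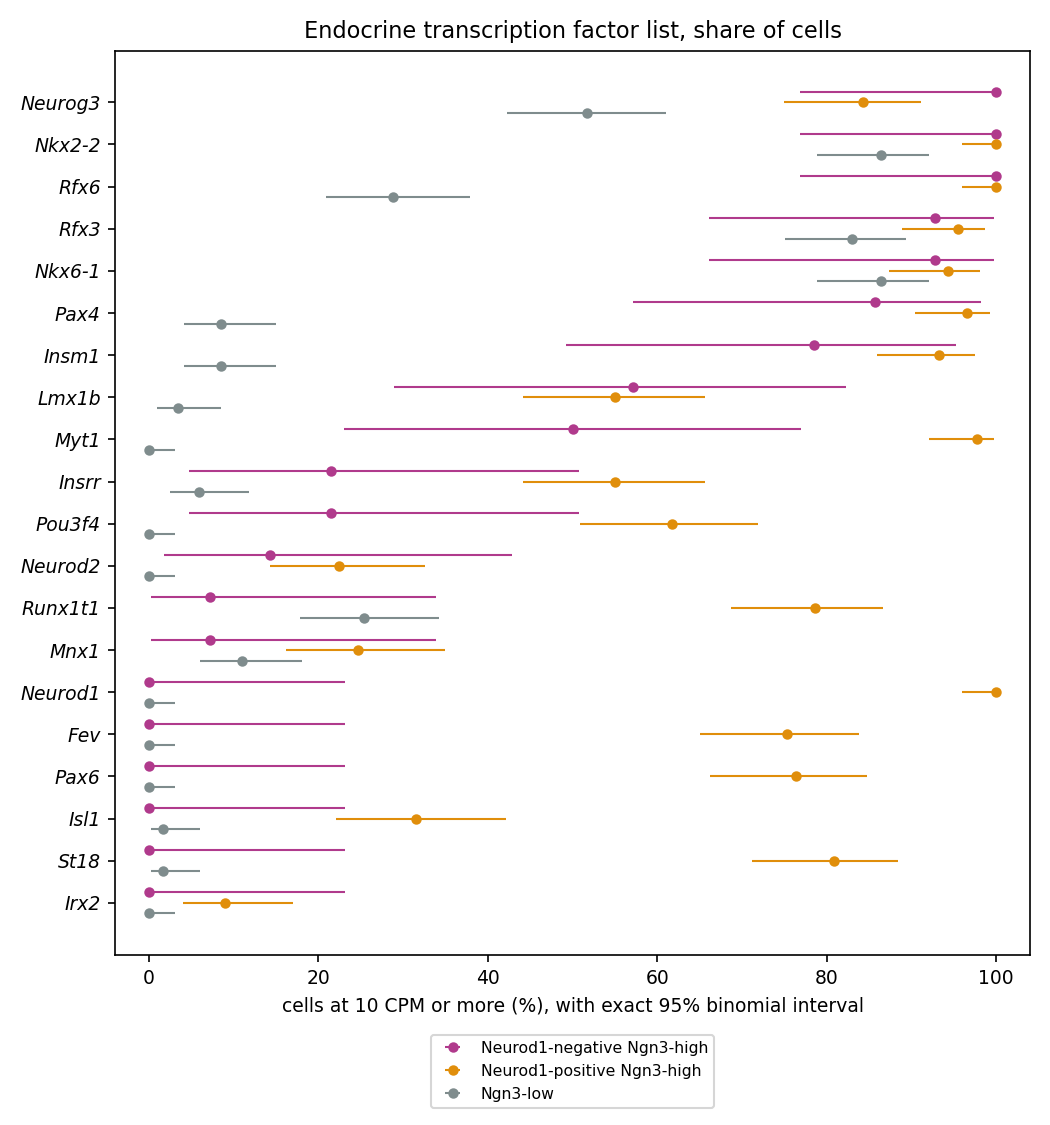
Share of cells with 10 CPM or more for 20 of the 22 endocrine transcription factors, in percent with exact 95% binomial intervals, for 14 Neurod1-negative, 89 Neurod1-positive and 118 Ngn3-low cells. Neurog3, Nkx2-2 and Rfx6 reach 100% of Neurod1-negative cells, while Fev, Pax6, Isl1, St18, Irx2 and, by the choice of cells, Neurod1 stand at 0 of 14.

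The granule and exocytosis genes split in the same way. Of 24 genes, 16 were lower in Neurod1-negative than in Neurod1-positive cells and none was higher, with a median log2 ratio of -3.96 over the 21 that reached 20 CPM. Over all genes compared, 11.9% were lower and 9.36% higher. Chgb (chromosome 2, 132781642 to 132795079) was at 11.9 CPM (9.86 to 14.2) in Neurod1-negative, 8773 CPM (8751 to 8796) in Neurod1-positive and 5.33 CPM in Ngn3-low cells, a log2 ratio of -9.41 to Neurod1-positive cells. Only 2 of 14 Neurod1-negative cells reached 10 CPM of Chgb, with a highest value of 86.7, against 73 of 89 Neurod1-positive cells. The second granin, Chga, stood at 1.77 CPM in Neurod1-negative and 855 CPM in Neurod1-positive cells, and Scg3 at 1.57 against 201 CPM. Cpe, the carboxypeptidase that trims prohormones, was at 66.8 CPM against 1154 CPM, and the prohormone convertase Pcsk1 at 25.6 CPM against 307 CPM.

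Of the same list, 5 genes differed by less than 2-fold, and these were far above the Ngn3-low level with the exception of Vamp2. Syt13, an atypical synaptotagmin, was at 603 CPM in Neurod1-negative, 876 CPM in Neurod1-positive and 13.9 CPM in Ngn3-low cells. Rph3al was at 455, 551 and 60.4 CPM, Cplx2 at 201, 274 and 47.3 CPM and Syt7 at 61.2, 44.0 and 0.20 CPM in these populations, while the vesicle protein gene Vamp2 stood at 62.9, 114 and 71.1 CPM. Outside the lists, Hepacam2 (0.29 against 303 CPM) and the G protein subunit gene Gnao1 (0.20 against 174 CPM) were among the 10 genes with the largest ratios below Neurod1-positive cells. Of the hormone genes, Ins1, Ins2 and Ghrl had no read in any Neurod1-negative cell and Gcg stood at 1.08 CPM. Iapp stood at 120 CPM in Jmjd3-deleted Neurod1-negative cells of title number 5 and at 17.7 CPM or less in the other combinations. Its log2 ratio to Neurod1-positive cells was -1.61, and -2.59 without cell 15 of that title number. The hormone list summed to 0 to 321 CPM per Neurod1-negative cell (median 7.09). It summed to 0 to 5114 CPM in Neurod1-positive cells (median 46.1) and 0 to 248 CPM in Ngn3-low cells (median 8.93). In Neurod1-positive cells Ins2 was at 29.9 CPM and Pyy at 157 CPM, against 3.24 CPM of Pyy in Neurod1-negative cells, a log2 ratio of -5.22 that was -5.99 without Jmjd3-deleted cell 7 of title number 1.

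**Figure D3:**
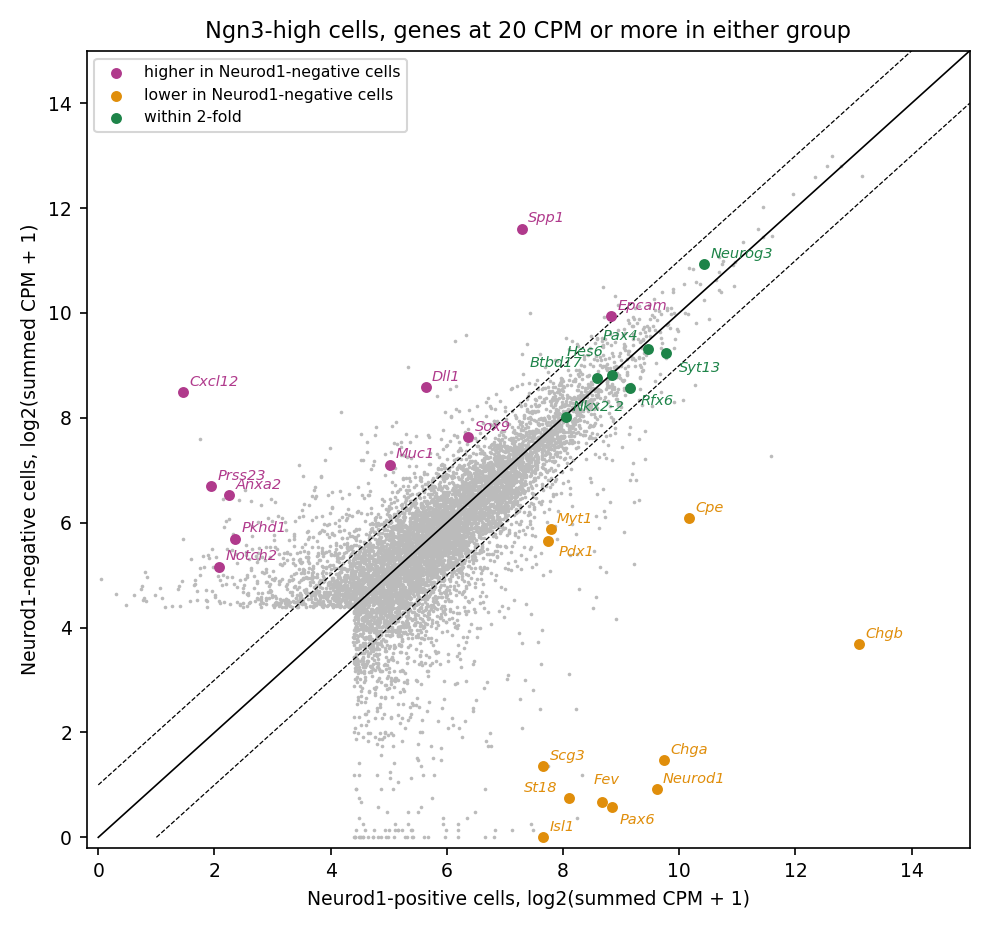
Summed level of each gene with 20 CPM or more in either population as log2(CPM + 1), Neurod1-negative cells on the vertical axis and Neurod1-positive cells on the horizontal axis, with the line of equal level and dashed lines at 2-fold. Labelled genes are named in the text: Spp1 and Cxcl12 lie far above the diagonal, Chgb far below it, and Nkx2-2, Pax4 and Hes6 on it.

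Trunk and duct genes were the list with the most members above the Neurod1-positive level. Of 20 trunk and duct genes, 10 were higher in Neurod1-negative than in Neurod1-positive cells and none was lower, with a median log2 ratio of 1.33 over the 14 that reached 20 CPM. Over all genes compared, 9.36% were higher and 11.9% lower. Spp1, the secreted phosphoprotein osteopontin of trunk epithelium (chromosome 5, 104435111 to 104441053), ranged over 0 to 13232 CPM in Neurod1-negative cells with a median of 2212, against a median of 3.31 (0 to 4104) in Neurod1-positive and 4979 (1.28 to 16548) in Ngn3-low cells. It was at 10 CPM or more in 12 of 14, 17 of 89 and 116 of 118 cells. The log2 ratio to Neurod1-positive cells was 4.32 over all cells, lay between 3.30 and 10.90 in the 6 combinations of genotype and title number, and was 6.79 without title number 1.

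The trunk genes did not all stand at the same point. Epcam, an epithelial adhesion molecule, was at 979 CPM in Neurod1-negative, 453 CPM in Neurod1-positive and 1060 CPM in Ngn3-low cells, and Clu, Muc1, Cdh1 and Tead2 were likewise more than 2-fold above Neurod1-positive cells and within 2-fold of Ngn3-low cells. Pkhd1, a duct gene, stood between at 50.9, 4.13 and 124 CPM. Anxa2 was at 90.9, 3.78 and 316 CPM, and its log2 ratio of 4.26 to Neurod1-positive cells was 3.67 without WT cell 24 of title number 1. Among Jmjd3-deleted Neurod1-negative cells, Anxa2 had no read in title numbers 1 and 5 and 47.6 CPM in cell 2 of title number 6. The transcription factors Hes1, a Notch target, and Onecut1 stood far below the Ngn3-low level: Hes1 was at 5.80 CPM in Neurod1-negative, 0.91 CPM in Neurod1-positive and 197 CPM in Ngn3-low cells, and Onecut1 at 4.62, 0.02 and 94.8 CPM. Hes1 reached 10 CPM in 2 of 14 Neurod1-negative cells, and 1 of them, Jmjd3-deleted cell 15 of title number 5, had 110 CPM. Without that cell the Hes1 log2 ratio of -4.86 to Ngn3-low cells was -6.54.

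The genes described next were among the 10 with the largest ratios above Neurod1-positive cells. Cxcl12, the chemokine ligand of Cxcr4 (chromosome 6, 117168535 to 117181368), was at 357 CPM in Neurod1-negative, 1.75 CPM in Neurod1-positive and 232 CPM in Ngn3-low cells, and at 10 CPM or more in 9 of 14, 1 of 89 and 77 of 118 cells. WT cell 24 of title number 1 had 2773 CPM of it, and without that cell the log2 ratio of 7.02 to Neurod1-positive cells was 5.66, and that of 0.62 to Ngn3-low cells was -0.75. The serine protease gene Prss23 stood at 103, 2.83 and 123 CPM, the glutathione transferase gene Gsta3 at 98.0, 4.76 and 274 CPM, the matrix protein gene Smoc2 at 85.5, 4.34 and 68.9 CPM, and Ggt1, a gamma-glutamyl transferase, at 50.4, 1.75 and 67.1 CPM. P4ha3 was at 23.9, 0.23 and 58.8 CPM, and its log2 ratio of 4.34 was 3.62 without Jmjd3-deleted cell 2 of title number 6. Serpina10 and 1810011O10Rik rested largely on WT cell 24 of title number 1, without which their log2 ratios of 4.31 and 4.89 were 2.73 and 3.57. Among Jmjd3-deleted Neurod1-negative cells, Smoc2, P4ha3 and 1810011O10Rik had no read in title numbers 1 and 5. In Jmjd3-deleted cell 2 of title number 6 these genes stood at 70.9, 100.3 and 5.19 CPM.

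Dll1, a ligand that activates Notch receptors on neighbouring cells (chromosome 17, 15367354 to 15376932), was highest in Neurod1-negative cells. Its level ran from 1.67 to 954 CPM with a median of 328 in Neurod1-negative cells, while the median was 0 in Neurod1-positive cells (highest 801) and 0 in Ngn3-low cells (highest 1154). Over summed reads it was at 383 CPM (371 to 395) in Neurod1-negative, 48.7 CPM (47.1 to 50.5) in Neurod1-positive and 54.9 CPM (53.3 to 56.5) in Ngn3-low cells. The values of single cells overlapped, but 92.9% of Neurod1-negative cells reached 10 CPM (66.1 to 99.8), against 23.6% (15.2 to 33.8) of Neurod1-positive and 38.1% of Ngn3-low cells. The log2 ratio to Neurod1-positive cells was 2.95 and lay between 1.93 and 5.24 in the 6 combinations of genotype and title number.

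Of 24 Notch pathway genes, 12 were compared with Neurod1-positive cells, and 6 were higher and 2 lower. Among all genes compared, 9.36% were higher and 11.9% lower. The receptors Notch1 (81.2, 10.6 and 174 CPM in Neurod1-negative, Neurod1-positive and Ngn3-low cells) and Notch2 (34.8, 3.25 and 271 CPM) lay between the other populations, and the Notch2 log2 ratio of 3.07 to Neurod1-positive cells was 2.47 without Jmjd3-deleted cell 2 of title number 6. Lfng, a fringe enzyme that modifies Notch receptors, was at 53.8, 9.28 and 9.26 CPM, highest in Neurod1-negative cells as Dll1 was. Mfng, the related fringe enzyme, did not differ between the Ngn3-high populations at 307, 308 and 9.13 CPM, and Dll4 was at 202, 118 and 18.9 CPM. The inhibitor of DNA binding genes parted: Id1 was at 96.8, 16.96 and 124 CPM, whereas Id2 (15.6, 72.0 and 403 CPM) and Id3 (6.09, 4.59 and 210 CPM) were far below Ngn3-low cells.

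Among 17 genes listed for early endocrine progenitors, 16 were compared with Neurod1-positive cells, and 4 were higher and 3 lower. The shares over all genes compared were 9.36% higher and 11.9% lower. The higher genes of the list were Dll1, Amotl2, Gadd45a and Sox4. Amotl2, a junction protein of the angiomotin family, was at 1275 CPM in Neurod1-negative, 477 CPM in Neurod1-positive and 154 CPM in Ngn3-low cells, and Gadd45a, a growth arrest gene, at 633, 274 and 5.58 CPM, though its log2 ratio to Neurod1-positive cells fell short of 2-fold without title number 1, at 0.78. Hes6, a basic helix-loop-helix inhibitor of Hes1, was level at 452 and 459 CPM in the Ngn3-high populations against 100.5 CPM in Ngn3-low cells, as was Btbd17 at 434, 382 and 9.03 CPM. The peptide gene Cck was uneven, with 6 of 14 Neurod1-negative cells at 10 CPM or more and a highest value of 2009 CPM, and its log2 ratio of -1.31 to Neurod1-positive cells was -1.95 without Jmjd3-deleted cell 1 of title number 1.

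Pdx1, the homeobox factor of all pancreatic progenitors and later of beta cells, was lower in Neurod1-negative cells than in either other population. It was at 49.3 CPM in Neurod1-negative, 212 CPM in Neurod1-positive and 163 CPM in Ngn3-low cells, and at 10 CPM or more in 9 of 14, 83 of 89 and 117 of 118 cells. The log2 ratio to Neurod1-positive cells was -3.74 in Jmjd3-deleted and -1.30 in WT cells, and this difference was not tested. Nkx6-1, a homeobox factor of trunk and beta cells, stood at 100.4, 175 and 75.8 CPM and met the 2-fold rule in neither comparison, but without title number 1 its log2 ratio of -0.80 to Neurod1-positive cells was -1.49, which meets it.

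Against Ngn3-low cells, 843 of 8472 genes compared were higher in Neurod1-negative cells (9.95%) and 1308 were lower (15.4%). This comparison and that with Neurod1-positive cells share the 14 cells. Title numbers 2, 3 and 4 held Ngn3-low cells only and title number 6 held Ngn3-high cells only. For those cells, differences by sort and by title number cannot be told apart. Of the 22 endocrine transcription factors 10 were higher and none lower, and of the 17 early progenitor genes 14 were higher and 1 lower. The genes with the largest ratios included Cck, Gadd45a, Tubb3 (150 against 0.21 CPM), a neuronal tubulin, Gfra3 (207 against 1.17 CPM), a receptor for the ligand artemin, the zinc transporter gene Slc39a2 (180 against 0.75 CPM) and Epb4.2 (141 against 0.36 CPM), an erythrocyte membrane protein gene. Each haemoglobin gene of the red blood cell list stood at 1.28 CPM or less in Neurod1-negative cells.

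Of 30 cell division genes, 26 were lower in Neurod1-negative than in Ngn3-low cells and none was higher. Over all genes compared with Ngn3-low cells, 15.4% were lower and 9.95% higher. Mki67, a marker of cycling cells, was at 4.22 CPM in Neurod1-negative, 0.96 CPM in Neurod1-positive and 135 CPM in Ngn3-low cells, and Plk1 and Kif23 had no read in any Neurod1-negative cell, at least 271-fold and 331-fold below Ngn3-low cells against a floor of 3 counts. The genes of the replication helicase were nearer to the Ngn3-low level: Mcm6 was at 316, 101 and 479 CPM in these populations and Mcm2 at 197, 168 and 267 CPM, within 2-fold of Ngn3-low cells. Rrm2, Mcm3, Mcm5 and Mcm6 were higher than in Neurod1-positive cells. The summed level of the list ran from 223 to 6419 CPM in Neurod1-negative cells, and the highest value belonged to WT cell 16 of title number 5, the next being 1546 CPM. Without that cell the log2 ratios of 1.77 for Rrm2 and 1.48 for Mcm3 to Neurod1-positive cells were 0.23 and 0.97. The Mki67 log2 ratio of -4.71 to Ngn3-low cells was -5.69 without Jmjd3-deleted cell 22 of title number 1.

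Other gene groups differed in extent and direction. Cdkn1a, an inhibitor of cyclin-dependent kinases, was at 1096 CPM in Neurod1-negative, 604 CPM in Neurod1-positive and 195 CPM in Ngn3-low cells. Of 15 genes listed for cell cycle exit, 11 were compared with Neurod1-positive cells, and 1 was higher and 3 lower. Over all genes compared, 9.36% were higher and 11.9% lower. The 11 exit genes had a median log2 ratio of -0.23. Of the lower ones, Cdkn2d had a log2 ratio of -1.83 and Rb1 of -1.57. Ezh2, the methyltransferase of histone H3 lysine 27, was at 157, 55.9 and 144 CPM and its partner Eed at 52.2, 20.6 and 56.9 CPM. The Eed log2 ratio of 1.30 to Neurod1-positive cells was 0.14 without title number 1. Of 13 genes listed for histone H3 lysine 27 methylation, 11 were compared with Neurod1-positive cells, and 2 were higher and 1 lower. Among all genes compared, 9.36% were higher and 11.9% lower. Of 22 genes of epithelial junctions and delamination, 16 were compared with Neurod1-positive cells, and 7 were higher and 2 lower. The shares over all genes were the same 9.36% and 11.9%. Snai2, a zinc finger repressor of epithelial genes, was at 44.5, 7.44 and 2.67 CPM and at 10 CPM or more in 5 of 14 Neurod1-negative cells, with a log2 ratio of 2.43 to Neurod1-positive cells that was 0.95 without title number 5. Cldn4, a tight junction claudin, was at 140, 587 and 182 CPM. Of 15 genes of the unfolded protein response, 14 were compared with Neurod1-positive cells and none met the 2-fold rule.

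**Figure D4:**
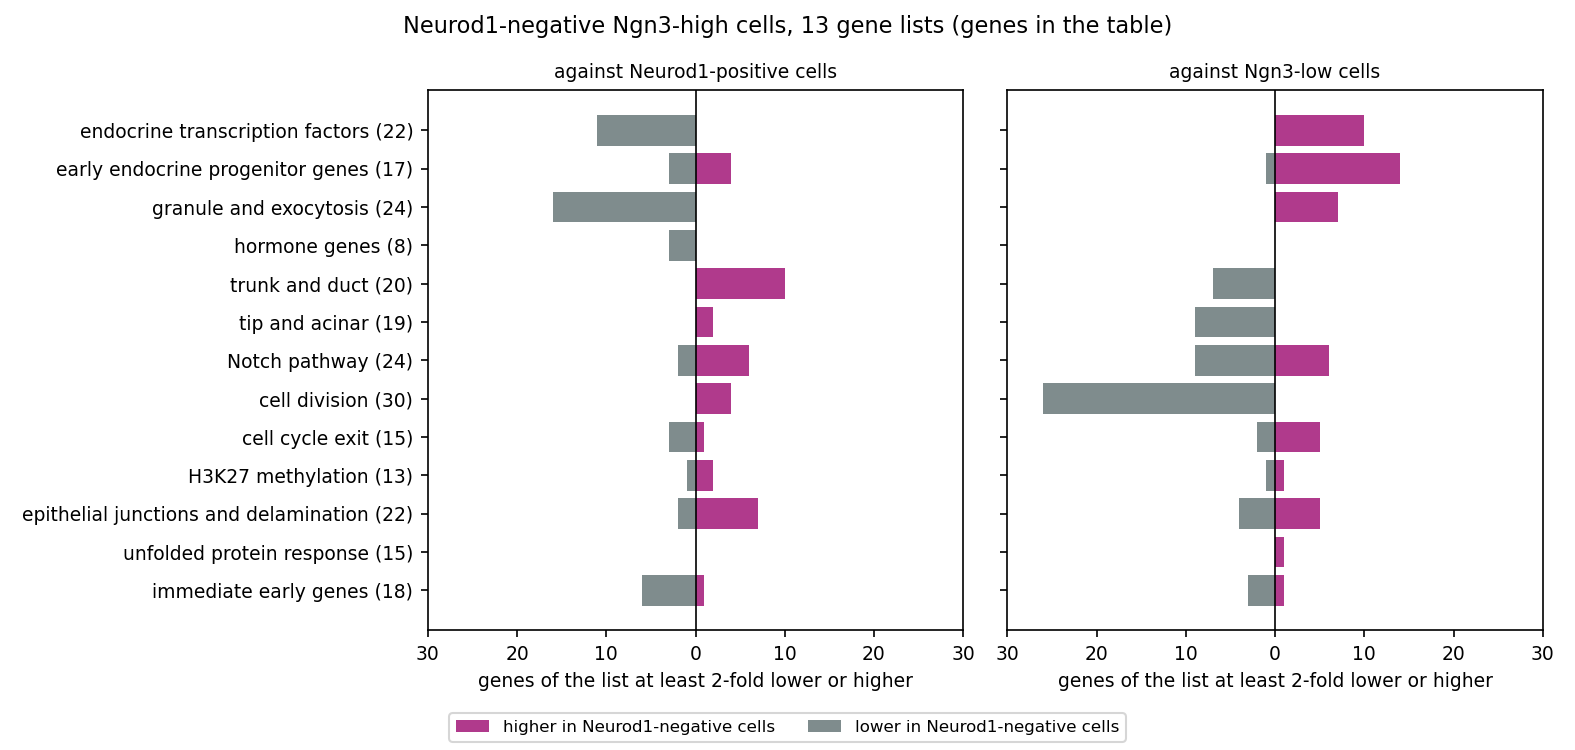
Number of genes of 13 lists at least 2-fold higher (purple, to the right) or lower (grey, to the left) in Neurod1-negative cells, against Neurod1-positive cells in the left panel and Ngn3-low cells in the right panel. Endocrine and granule genes lie to the left in the left panel and to the right in the right panel, trunk genes the other way round, and 26 of 30 cell division genes lie to the left of Ngn3-low cells.

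Markers of other cell types differed by list. Of the markers of white blood cells (12), mesenchyme (12) and mesothelium (6), none reached the 20 CPM needed for a comparison in any population. Genes without a read in any Neurod1-negative cell were 9 of 12 for white blood cells and 9 of 12 for mesenchyme. They were 6 of 11 for endothelium, 5 of 11 for neural crest and glia and 3 of 10 for liver. Ptprc, Kdr, Cdh5, Col3a1, Sox10 and Alb were among them, and the other members of these lists were read. The summed level per cell was 0 to 56.2 CPM for white blood cell markers in Neurod1-negative, 0 to 133 in Neurod1-positive and 0 to 186 in Ngn3-low cells. Its medians were 7.32, 0 and 1.23 CPM in the same order, and the highest values come from populations of 14, 89 and 118 cells. It was 0 to 2.45, 0 to 107 and 0 to 222 CPM for mesenchyme, and 0 to 101, 0 to 92.9 and 0 to 165 CPM for endothelium, where Egfl7 gave most reads. Tip and acinar genes summed to 0 to 724 CPM in Neurod1-negative cells, and the 2 highest were WT cell 26 of title number 1, with 529 CPM of Cpa1, and WT cell 1 of title number 5. The acinar factor gene Ptf1a was at 0. Slc4a1, an erythrocyte anion exchanger gene, was the only red blood cell marker higher than in Neurod1-positive cells, at 79.9 against 11.3 CPM, and its log2 ratio of 2.72 was 2.09 without WT cell 25 of title number 1. The red blood cell list summed to 0 to 464 CPM in Neurod1-negative (median 33.98), 0 to 524 in Neurod1-positive (median 2.27) and 0 to 3066 in Ngn3-low cells (median 10.8). Markers of neural crest and glia summed to 55.1 to 421 CPM in Neurod1-negative (median 177), 0 to 948 in Neurod1-positive (median 139) and 0 to 579 in Ngn3-low cells (median 112). Of these Erbb3, a receptor kinase gene, was higher than in Neurod1-positive cells, at 57.3, 20.5 and 119 CPM in the same order. Its log2 ratio of 1.44 to Neurod1-positive cells was 0.89, short of 2-fold, without WT cell 26 of title number 1. It was -0.18 and -4.90 in Jmjd3-deleted cells of title numbers 1 and 5 and above 0 in the other combinations. Liver list sums were 270 to 1641 CPM in Neurod1-negative (median 899), 0 to 4847 in Neurod1-positive (median 506) and 16.7 to 2668 in Ngn3-low cells (median 578). Of these sums Ttr, also a pancreatic gene, gave 840, 713 and 474 CPM over summed reads. The liver genes Afp (52.3, 11.3 and 87.7 CPM) and Serpina1a (29.5, 9.19 and 19.7 CPM) were higher in Neurod1-negative than in Neurod1-positive cells. The part of other cell types in the differences was not tested.

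Immediate early genes, which respond to handling of cells, moved with the split. Of 18, 9 were compared with Neurod1-positive cells, and 6 were lower and 1 higher in Neurod1-negative cells. The shares over all genes compared were 11.9% lower and 9.36% higher. Fos was at 7.56 against 132 CPM, Dusp1 at 7.46 against 50.3 CPM and Jun at 18.1 against 79.6 CPM. A single cell held much of the reads of each of Fos and Dusp1: their log2 ratios of -3.96 and -2.60 were -4.89 without WT cell 16 of title number 5 and -4.49 without WT cell 22 of title number 1. The list summed to 111 to 903 CPM per Neurod1-negative cell (median 346), 106 to 2231 per Neurod1-positive cell (median 556) and 63.0 to 2038 per Ngn3-low cell (median 540). The part of handling in the other differences was not tested.

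The bulk libraries, which played no role in the choice of cells, gave a replicated test of the same genes between the sorts. The fit also held 2 libraries of Ins1-RFP positive cells at E17.5, which add to the estimate of spread only. With edgeR's quasi-likelihood test and Benjamini-Hochberg adjustment at 0.05, 4349 of 15684 genes rose (27.7%) and 4729 fell (30.2%) in Ngn3-high against Ngn3-low libraries. In bulk samples, fewer cells of a type and less RNA per cell cannot be told apart. Of 971 tested genes that were lower in Neurod1-negative than in Neurod1-positive cells, 684 rose (70.4%) and 70 fell (7.21%) in bulk. Of 760 tested genes that were higher, 82 rose (10.8%) and 476 fell (62.6%).

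Endocrine factors near the Neurod1-positive level in Neurod1-negative cells and those near 0 there both rose in bulk. Pax4 was at 303 and 232 CPM in Ngn3-high libraries, against 23.7 and 19.4 CPM in Ngn3-low libraries, a log2 difference of 3.63 ± 0.17 (SE, n = 2 each) with an edgeR adjusted p of 8.01e-07. Fev, which was at or near 0 in Neurod1-negative cells, was at 195 and 248 CPM in Ngn3-high libraries, against 0.43 and 0.69 CPM in Ngn3-low libraries, a log2 difference of 8.66 ± 0.23 (edgeR adjusted p = 2.83e-07). Spp1 fell to 109 and 119 CPM in Ngn3-high libraries, against 1271 and 1246 CPM in Ngn3-low libraries, a log2 difference of -3.47 ± 0.14 (edgeR adjusted p = 5.50e-07). All 22 endocrine transcription factors and all 24 granule genes rose, 14 of 20 trunk genes fell and 2 rose, and all 30 cell division genes fell. Over all genes tested in bulk, 27.7% rose and 30.2% fell. All 12 white blood cell and 11 endothelial markers also fell, with Ptprc at 0.18 and 0.08 CPM in Ngn3-high libraries, against 123 and 114 CPM in Ngn3-low libraries, and their part in the bulk differences was not tested.

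Dll1 did not pass the bulk test. It was at 119 and 81.8 CPM in Ngn3-high libraries, against 128 and 113 CPM in Ngn3-low libraries, a log2 difference of -0.26 ± 0.18 (edgeR adjusted p = 0.251), and it did so only without the Ngn3-high replicate 1 library, at -0.58 (edgeR adjusted p = 0.025). Lfng (log2 fold change 0.08, edgeR adjusted p = 0.90), Amotl2 (0.27, edgeR adjusted p = 0.157) and Tead2 (-0.12, edgeR adjusted p = 0.799) did not pass it either, although each was at least 2-fold above Neurod1-positive cells in Neurod1-negative cells. Amotl2 did so without the Ngn3-high replicate 2 library (0.48, edgeR adjusted p = 0.021). Pdx1 rose in bulk, with 212 and 279 CPM in Ngn3-high libraries, against 111 and 107 CPM in Ngn3-low libraries (log2 fold change 1.17 ± 0.15, edgeR adjusted p = 0.000262), while it was lower in Neurod1-negative cells than in both single-cell populations.

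A score from bulk genes set each cell along the difference between the bulk sorts. For each cell it is the mean log2(CPM + 1) of the 100 genes that rose most in bulk Ngn3-high libraries minus that of the 100 that fell most, leaving out Neurod1. Neurod1-negative cells scored a median of 1.03 (0.17 to 3.15), Neurod1-positive cells 4.15 (0.74 to 4.96) and Ngn3-low cells 0.06 (-0.94 to 0.39). The populations overlapped at the edges: 12 of 14 Neurod1-negative cells lay above every Ngn3-low cell, 5 of 14 lay below every Neurod1-positive cell, and 16 of 89 Neurod1-positive cells lay at or below the highest Neurod1-negative cell. The fallen genes contributed little, with means of 0.02 to 0.17 in Neurod1-negative cells, so the score mostly reads the risen genes. The median of that mean was 0.06 in Neurod1-negative, 0.08 in Neurod1-positive and 0.09 in Ngn3-low cells. The fallen genes were thus hardly read in most Ngn3-low cells either.

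The 14 cells differed widely among themselves along this score. The lowest, Jmjd3-deleted cell 2 of title number 6 at 0.17, had the least Neurog3 of the 14 at 527 CPM, no Pax4 and no Insm1, but 492 CPM of Dll1 and 2572 CPM of Spp1. WT cell 24 of title number 1 scored 0.37 with 13232 CPM of Spp1 and 35.4 CPM of Pax4. The 3 highest cells had the least Spp1 of the 14. Jmjd3-deleted cell 1 of title number 1 scored 3.15 with 165 CPM of Spp1 and 183 CPM of Myt1. WT cell 23 of title number 1 scored 2.70 with 3.44 CPM of Spp1 and 1606 CPM of Pax4, and is 1 of the 2 members with any Neurod1 read. Jmjd3-deleted cell 7 of title number 1 scored 2.00 with no Spp1 read and 1467 CPM of Pax4.

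The cells next to the threshold on its other side were no sharper. The Jmjd3-deleted cell with 37.2 CPM of Neurod1 scored 2.73, with 5158 CPM of Neurog3, 4.30 CPM of Spp1 and no read of Chgb or Fev. The WT cell with 64.9 CPM of Neurod1 scored 1.63, with 3866 CPM of Spp1, 156 CPM of Dll1, 4.43 CPM of Chgb and 28.04 CPM of Fev. Both lie within the range of the 14 Neurod1-negative cells for the score.

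**Figure D5:**
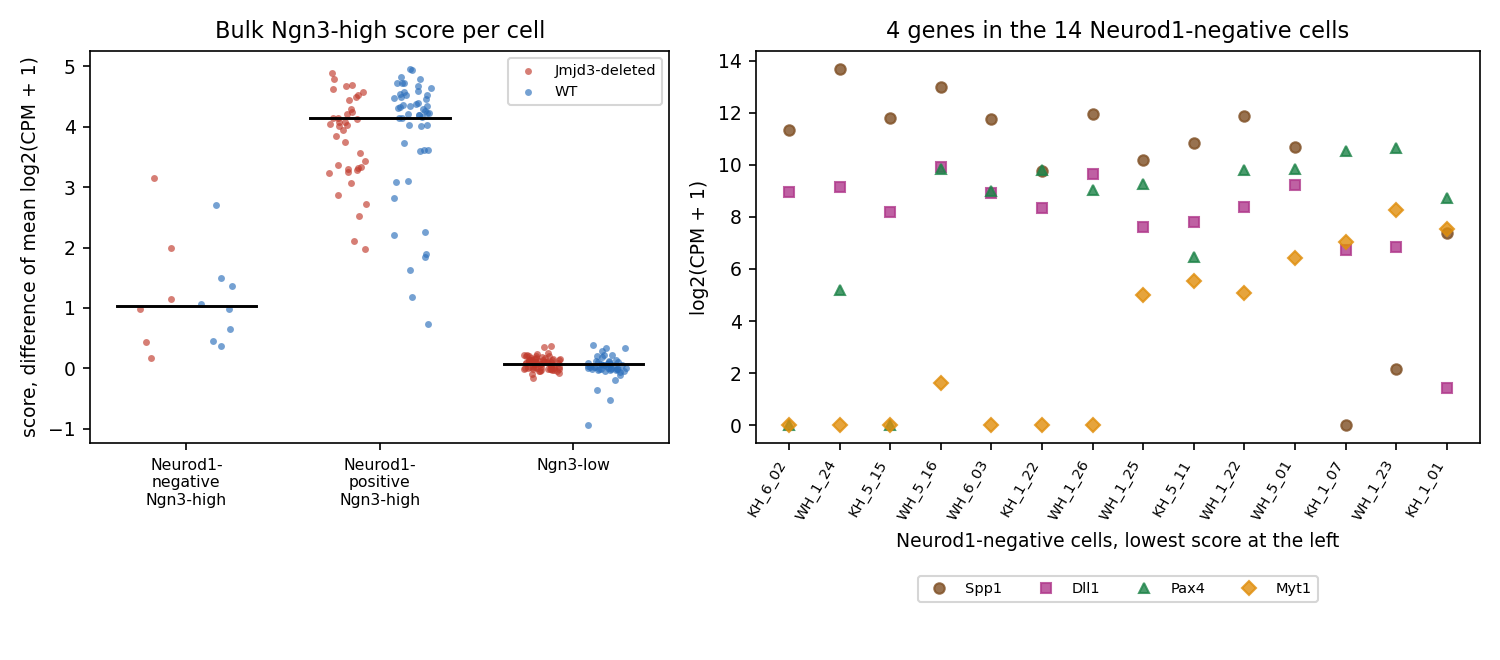
Left, the bulk Ngn3-high score of each cell in Neurod1-negative, Neurod1-positive and Ngn3-low cells, Jmjd3-deleted cells in red and WT cells in blue, with the median of each population as a bar (1.03, 4.15 and 0.06). Right, log2(CPM + 1) of Spp1, Dll1, Pax4 and Myt1 in the 14 Neurod1-negative cells ordered by score (KH, Jmjd3-deleted, and WH, WT, followed by title number and cell number), where Spp1 is lowest and Myt1 highest in the 3 cells at the right.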

How the data were processed

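Of the series, 221 single cells and 6 bulk RNA libraries were used, and 31 chromatin samples were not used here. Per the labels' protocols, cDNA of single cells was made with Smart-seq2 (no molecular identifiers) after adding ERCC RNA, and bulk libraries were made with a directional kit. The values used are the authors' deposited read counts per gene, not normalised. Per the submitters' processing notes the tools were HTSeq 0.6.0, TopHat2 2.1.0 with Bowtie2, and DESeq 1.20.0, on build mm10. RPKM values were also deposited by the authors and were used only for an alternative choice of cells (Neurod1 under 5 RPKM), which gave 14 cells as well. Annotation and strand setting were not given in the sources used here. Antisense partners and close paralogs such as Ins1 and Ins2 are therefore uncertain. Coordinates were taken by symbol from a RefSeq table of GRCm38.

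Counts of the 40824 genes, without 92 ERCC entries, were divided by each cell's total to give CPM. Reads were then summed per population, with exact Poisson intervals, shares of cells at 10 CPM or more with exact binomial intervals, and log2 ratios with 1 CPM added to each side. All intervals and floors cover counting error only. No doublet caller was run and no cell was filtered out. Cells are not replicates, so no test was made from them. Bulk counts were tested with edgeR 4.0.16 (quasi-likelihood, TMM, filterByExpr, all 6 libraries, Benjamini-Hochberg) in R 4.3.3, with limma 3.58.1 and DESeq2 1.42.0 for alternatives, and bulk levels are CPM over TMM-normalised library sizes. Nothing says that the bulk replicates came from separate animals, so p-values reflect the spread of these libraries only, which may be technical. The bulk fit and the TMM step were tested on simulated data. Other steps used Python 3.11.15, numpy 2.4.6, scipy 1.17.1, pandas 2.3.3 and matplotlib 3.10.9.

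The members and the 21 gene lists were chosen with earlier results of these data known. Named genes were 26 fixed genes, the 10 genes in each direction with the largest ratio to Neurod1-positive cells and the 6 in each direction to Ngn3-low cells, and up to 3 members of each list past the 2-fold rule. The ratio rules asked for 20 CPM in the higher population, 25% of its cells at 10 CPM or more, a share at least 25 percentage points larger and the same direction in both genotypes. Other list members are named to describe their list, after their values were seen, and a few members are not reported here by name. Alternatives changed the Neurod1 threshold, the level minimum, the amount added, the scaling, the depth (reads thinned to 383144 per cell, below which 1 Ngn3-low cell fell), the genotype, the title number, single cells or libraries left out, and the bulk tool, filter and replicate block.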

Additional observations from a re-analysis of the deposited data

Results flagged for a closer look

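Within each genotype, 62 measures of the Neurod1-negative cells were examined for a cell that stood apart from the others by Dixon's criterion, on a log2(CPM + 1) scale for levels, and 8 were found, where chance alone flags about 1 in 20 groups. Spp1 was at 0 CPM in Jmjd3-deleted cell 7 of title number 1 and at 3.44 CPM in WT cell 23 of title number 1, each the lowest of its genotype. Dll1 was at 1.67 CPM in Jmjd3-deleted cell 1 of title number 1. These cells are the 3 with the highest bulk Ngn3-high score among the 14. Pax4 was at 35.4 CPM in WT cell 24 of title number 1, and Insm1 at 4.28 CPM in WT cell 26 of title number 1, each the lowest of 8 WT cells. The junction and delamination list summed to 6295 CPM in Jmjd3-deleted cell 2 of title number 6, the highest of 6 cells. The mesenchyme list summed to 1.73 CPM in that cell, and the mesothelium list to 2.07 CPM in WT cell 1 of title number 5, levels that rest on few reads. Among the 26 fixed genes, none had a log2 ratio to Neurod1-positive cells of one sign in every title number of one genotype and of the other sign in every title number of the other genotype, and the difference between genotypes was not tested.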

How the results depend on the processing

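The counts of genes higher and lower than in Neurod1-positive cells were 1363 and 1789 with a minimum of 5 CPM and 390 and 488 with a minimum of 50 CPM, as more or fewer genes were compared, and 1182 and 1623 without title number 1, which leaves fewer cells. Of the 763 higher and 972 lower genes, 583 and 742 were also called without title number 1. Leaving out 1 cell at a time gave 744 to 817 higher and 958 to 1042 lower genes, and 810 to 876 and 1277 to 1386 against Ngn3-low cells. Without the cells under 10 CPM of Pax4, an alternative chosen after seeing the data, the counts were 761 and 1003, and 888 and 1401 against Ngn3-low cells. Leaving out 1 bulk library at a time gave 3267 to 3979 genes that rose and 3885 to 4226 that fell, where the lone library of a group is assumed to vary like the others. The fit with a replicate block gave 4532 and 4835. The bulk replicate numbers are shared labels only, with a correlation of deviations of 0.151 between Ngn3-high and Ngn3-low over 2 numbers. DESeq2 gave 4251 and 4455.

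Some single genes changed sign, and the cause was not tested. Against Neurod1-positive cells the log2 ratio was 0.30 for Iapp without title number 5, and in Jmjd3-deleted cells alone -1.48 for Pnliprp1, -2.94 for Rrm2 and -0.11 for Mcm3. Against Ngn3-low cells it was -2.07 for 1810011O10Rik in Jmjd3-deleted cells alone, and without WT cell 24 of title number 1 it was -0.036 for 1810011O10Rik and -0.41 for Serpina10, the low ends of ranges over single cells left out that reached 1.42 and 1.32. Against the Ngn3-low cells with Cpa1 under 10 CPM, chosen after seeing the data, it was 4.71 for Cpa1 and 4.68 for Pnliprp1, where choosing the cells by Cpa1 fixes the sign for Cpa1 itself, so that value is no result. The Snai2 bulk log2 fold change was 0.25 without Ngn3-high replicate 1, 0.08 without Ngn3-low replicate 1 and -0.44 without Ngn3-high replicate 2, its lowest. With 14 cells, a gene absent from all of them could still be read in up to 23.2% of such cells (exact 95% binomial limit).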

Other observations

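Some genes outside the lists stood, like Dll1, above both other populations in Neurod1-negative cells, and were picked after their values were seen. Tmem171, a membrane protein gene, was read in all 14 Neurod1-negative cells, at 67.6 to 743 CPM, and stood at 375 CPM in Neurod1-negative, 65.7 CPM in Neurod1-positive and 77.04 CPM in Ngn3-low cells. Its bulk log2 fold change was 0.16 (edgeR adjusted p = 0.342). Bcl2, an inhibitor of apoptosis, stood at 145 CPM in Neurod1-negative, 22.01 CPM in Neurod1-positive and 16.6 CPM in Ngn3-low cells, and its bulk log2 difference was 0.35 (edgeR adjusted p = 0.0872). Rsad2, an interferon-induced gene, was at 185, 35.9 and 20.08 CPM in these populations and rose in bulk by a log2 difference of 0.55 (edgeR adjusted p = 0.00644). Phlda1 was at 89.8, 11.8 and 20.3 CPM and fell in bulk, with a log2 difference of -0.55 (edgeR adjusted p = 0.0136).

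Some genes outside the lists lay, like Pdx1, below both other populations, and were likewise picked after their values were seen. Nr3c1, the glucocorticoid receptor gene, was at 1.67 CPM in Neurod1-negative, 33.3 CPM in Neurod1-positive and 42.8 CPM in Ngn3-low cells. Ghr, the growth hormone receptor gene, stood at 2.75, 76.0 and 37.7 CPM, and Apbb1, an adaptor that binds the amyloid precursor protein, at 2.55, 101 and 25.9 CPM.

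The 5 WT members of title number 1 are cells 22 to 26, and the neighbours by number, cells 21 and 27, had 141 and 64.9 CPM of Neurod1, the lowest values of WT Neurod1-positive cells. What the cell numbers stand for is not given in the labels.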
